A study of Mus musculus with 24 samples.

Results

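Peg3, Usp29 and Zim1, which are neighbours on mouse chromosome 7, and 7 other imprinted genes outside chromosome 12 (Mest, Plagl1, Snrpn, Igf2r, H19, Cdkn1c and Grb10) were followed in differentiating embryonic stem cells with and without Setd3. The 10 genes were taken by name from a count table of 55401 entries, and all 10 had counts high enough to be tested, among 17144 tested genes. The question was whether a difference between genotypes was already present in the stem cells and stayed, or came from a smaller rise at day 4.

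An imprinted gene is expressed mainly from a single parental chromosome, according to DNA methylation marks laid down in the egg or the sperm. Peg3 and Usp29 start back to back in a CpG-rich region that carries such a mark on the maternal chromosome, so both are transcribed from the paternal one, while the nearby Zim1 is mostly maternal. Many imprinted genes act on embryonic growth and are high in the early mesoderm and endoderm and their derivatives. The libraries measure total RNA of a gene and do not tell the parental chromosomes apart.

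The cells were CJ9 mouse embryonic stem cells, either wild-type or a line with Setd3, a methyltransferase of actin, knocked out with CRISPR-Cas9. Both genotypes had been kept with LIF on inactivated embryonic fibroblast feeder cells, were taken off them, spent 2 days in a serum-free medium for endoderm and were replated on day 2 in that medium with Activin A, a ligand that drives endoderm formation. Polyadenylated RNA was sequenced at days 0, 2, 3 and 4 in 3 libraries of each genotype, 24 libraries in 8 groups. The labels do not say that the 3 libraries of a group came from separate cultures, so p-values measure the spread between these libraries, which may be technical, and with 1 knock-out line the loss of Setd3 and other differences between the lines cannot be told apart.

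Total counts ran from 18531390 to 24244958 per library and the number of genes with a count from 20020 to 22665. Setd3 transcripts lay between 97.1 and 127 CPM (counts scaled to a common library size) in the 12 wild-type libraries and between 29.1 and 48.8 CPM in the 12 knock-out libraries, with no overlap. Markers of pluripotent stem cells summed to between 3595 and 3949 CPM at day 0, although Sox2, a defining marker, was at 0 in all 24 libraries. How reads of overlapping genes were counted is not given, so this 0 may not be an absence of transcripts. The sum of 19 fibroblast markers at day 0 was 1408, 2529 and 2134 CPM for the wild-type and 3643, 2609 and 1387 CPM for the knock-out, and by day 4 it lay between 63.5 and 80.9 CPM. The sum of 11 definitive endoderm markers at day 4 ranged from 4515 to 4742 CPM for wild-type cells and from 1497 to 1848 CPM for knock-out cells. In the stem cells of day 0 the knock-out had the higher sum, with group means of 1159 CPM (knock-out) and 639 CPM (wild-type). The median log2 difference of the 11 single markers was -1.58 at day 0, where 1 was lower and 1 higher at adjusted p under 0.05. At day 4 this median was -4.43 and all 11 were lower. Such a sum gives most weight to its abundant markers. In bulk libraries, fewer cells of a type and less RNA per cell cannot be told apart.

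The sequences upstream of 4 members are shown because Peg3 and Usp29 share theirs, Zim1 lies in the same domain but took another course, and Mest followed Peg3 from another chromosome. RefSeq on GRCm38.p6 placed the start of Peg3 at position 6730419 (minus strand) and that of Usp29 at 6730583 (plus strand) of chromosome 7, so that 163 bases lie between them, chr7:6730420-6730582, given on the plus strand. The 250 bases before the Zim1 start are chr7:6696433-6696682 on the minus strand. The 250 bases before a Mest start, at chr6:30737800-30738049 on the plus strand, lie within the span that GENCODE gives Mest, which also has a start further upstream. Each is written 5′ to 3′ with CpG dinucleotides, the sites that imprinting marks methylate, in capitals.
Peg3 to Usp29: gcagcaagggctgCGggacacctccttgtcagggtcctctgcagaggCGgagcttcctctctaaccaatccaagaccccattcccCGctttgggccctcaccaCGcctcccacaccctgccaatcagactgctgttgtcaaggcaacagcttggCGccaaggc
Zim1: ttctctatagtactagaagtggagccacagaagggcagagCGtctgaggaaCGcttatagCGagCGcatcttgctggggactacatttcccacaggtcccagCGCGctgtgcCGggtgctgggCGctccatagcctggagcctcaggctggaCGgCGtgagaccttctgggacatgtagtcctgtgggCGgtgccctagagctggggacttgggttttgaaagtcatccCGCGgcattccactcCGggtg
Mest: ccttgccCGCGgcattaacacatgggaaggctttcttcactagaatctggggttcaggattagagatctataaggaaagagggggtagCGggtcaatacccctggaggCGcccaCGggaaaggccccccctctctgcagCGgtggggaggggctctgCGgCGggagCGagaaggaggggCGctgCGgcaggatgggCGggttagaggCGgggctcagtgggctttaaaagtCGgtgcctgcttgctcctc
The stretch shared by Peg3 and Usp29 held 5 CpG in 163 bases with a GC content of 62%. In windows of 250 bases before the start, Peg3 held 8 CpG and Usp29 14 CpG. The windows of Zim1 and Mest shown held 14 CpG each, and another Mest window, chr6:30733256-30733505, held 7. The median of all 32851 RefSeq windows of 250 bases was 6 CpG. No match of CCATNTT, the core of the motif of YY1, was found on either strand in the windows of Peg3, Usp29, Zim1 and Mest. Of all windows of 250 bases, 12.4% held at least 1. Only the 250 bases before each start were searched, so nothing follows for sites elsewhere in the genes or the domain. Windows were at hand for 8 of the 10 genes, and the only match among them lay before a Grb10 start.

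At day 0, 5 of the 10 genes differed between genotypes, 4 lower and 1 higher in the knock-out, beside 10.5% and 10.6% of all tested genes. At day 2 there were 4 lower and 3 higher (15.7% and 16.2% of all tested genes), and at day 3 5 lower and 3 higher (20.5% and 20.8%). At day 4, 6 were lower and 2 higher, beside 27.6% and 26.3% of all tested genes. The median log2 difference of the 10 genes was -0.24, -0.59, -0.95 and -1.31 at days 0, 2, 3 and 4, and that of all tested genes stayed between -0.01 and 0.01.

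A gap throughout, with the same sign and past the threshold of adjusted p 0.05 at all 4 days, was found for Peg3, Usp29 and Mest, all 3 lower in the knock-out. Of all tested genes, 2.82% were lower and 3.73% higher at all 4 days. A smaller rise, that is a rise of the wild-type from day 3 to day 4 that passed the test together with a test that the knock-out's step was lower, was found for 7 genes: Peg3, Usp29, Mest, Zim1, H19, Cdkn1c and Grb10. Of all tested genes 10.1% met this rule, and of the 3843 that rose in the wild-type, as 8 of the 10 did, 44.9% met it. Peg3, Usp29 and Mest met both rules, as did 0.356% of all tested genes, and Plagl1, Snrpn and Igf2r met neither.

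**Figure D1:**
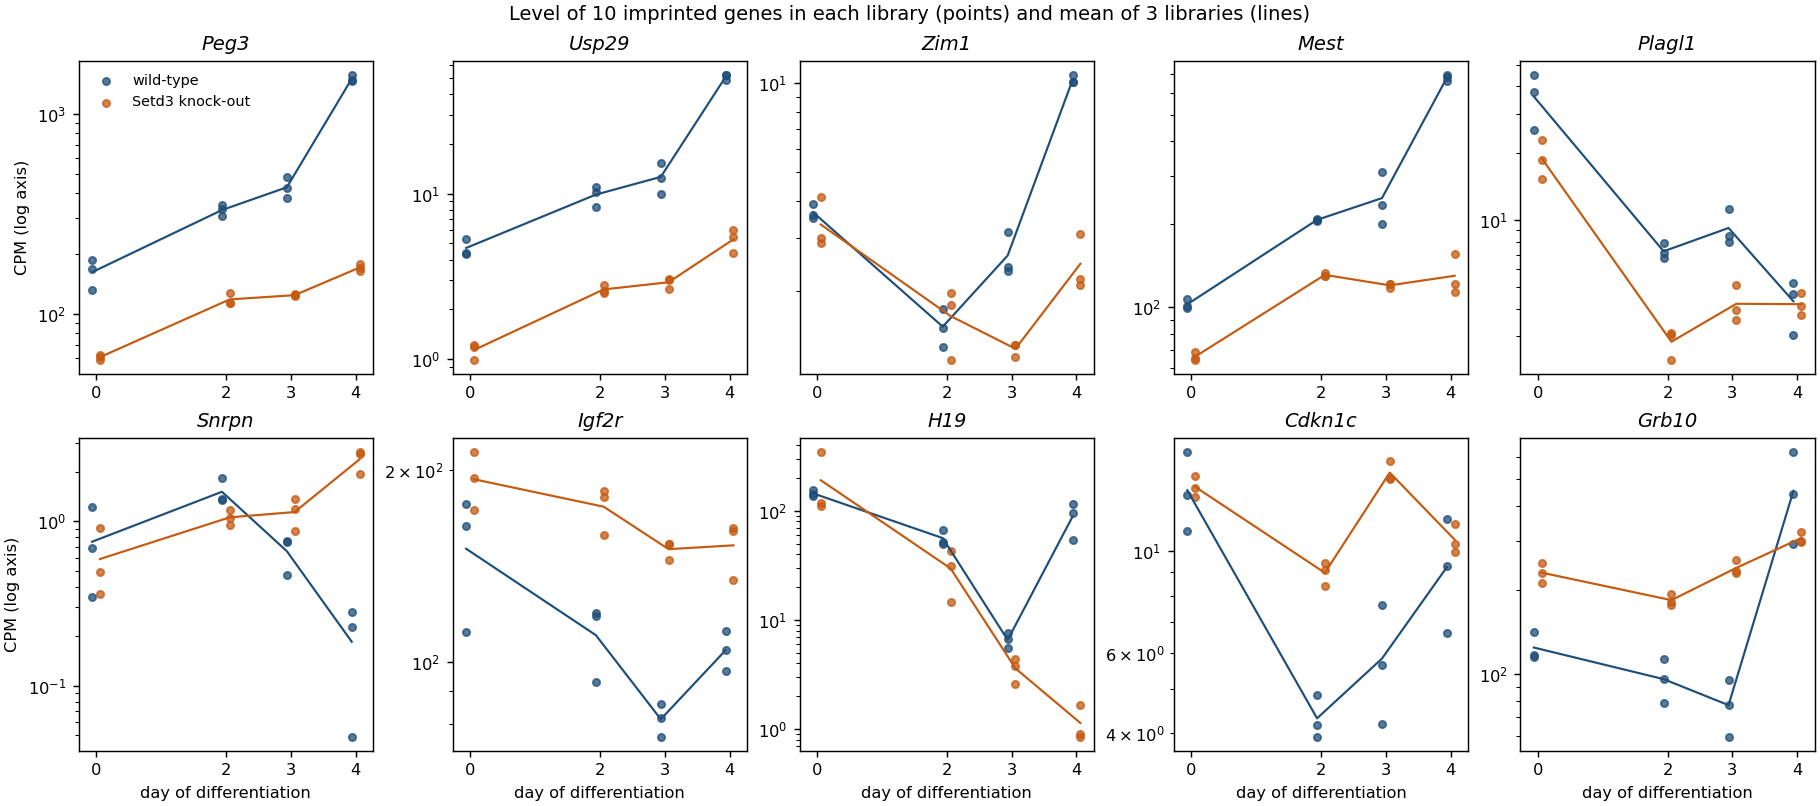
Level of each of the 10 genes in CPM (log axis) against the day of differentiation; points are libraries, lines join the means of 3 libraries, blue is wild-type and orange is the Setd3 knock-out. Peg3 and Usp29 are lower in the knock-out at every day and rise less there from day 3 to day 4, while H19 rises in the wild-type to a mean of 88.6 CPM at day 4 and in the knock-out has means of 3.60 CPM at day 3 and 1.14 CPM at day 4.

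Peg3 encodes a large zinc finger protein that binds DNA and acts in growth and nurturing behaviour, and it lies at chr7:6703892-6730431 on the minus strand (GRCm38, GENCODE M21). In the wild-type libraries it stood at 131, 186 and 167 CPM on day 0, at 349, 335 and 307 CPM on day 2, at 483, 425 and 381 CPM on day 3 and at 1561, 1471 and 1466 CPM on day 4. The knock-out libraries held 60.9, 62.1 and 59.0 CPM on day 0, 114, 113 and 127 CPM on day 2, 125, 123 and 124 CPM on day 3 and 169.8, 164 and 178 CPM on day 4. At no day did the genotypes overlap, and only the knock-out of day 4 reached the level of the wild-type stem cells: in the order of the 8 group means its libraries overlapped with those of the wild-type at day 0.

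The Peg3 gap was -1.41 ± 0.10 on the log2 scale at day 0, where ± gives the standard error of the fit, -1.49 ± 0.09 at day 2, -1.79 ± 0.09 at day 3 and -3.14 ± 0.10 at day 4 (adjusted p at most 9.53e-10). The knock-out thus held 37.5%, 35.7%, 28.9% and 11.4% of the wild-type level. From day 0 to day 2 both genotypes rose, by 1.03 ± 0.09 in the wild-type and 0.96 ± 0.10 in the knock-out, and the difference of these steps was -0.07 with a 95% interval from -0.35 to 0.20 (adjusted p = 0.82). From day 3 to day 4 the wild-type rose by 1.80 ± 0.09 and the knock-out by 0.46 ± 0.09. These steps differed by -1.34 ± 0.13 (adjusted p = 2.35e-07), so of the Peg3 gap at day 4 a part was there in the stem cells and a part was added in the last step.

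Usp29, a gene of the ubiquitin-specific protease family, lies at chr7:6730578-6967219 on the plus strand. Its wild-type libraries went from 4.34, 5.35 and 4.40 CPM at day 0 through 11.03, 10.3 and 8.34 CPM and 15.4, 12.5 and 10.0 CPM to 52.1, 48.9 and 52.1 CPM at day 4. Those without Setd3 went from 1.22, 0.993 and 1.18 CPM through 2.51, 2.80 and 2.59 CPM and 3.05, 2.67 and 3.03 CPM to 4.40, 5.47 and 6.03 CPM. The genotypes overlapped at no day. The gap was -2.05 ± 0.19, -1.91 ± 0.16, -2.11 ± 0.15 and -3.27 ± 0.14 at days 0, 2, 3 and 4 (adjusted p at most 3e-08). The last step was 2.01 ± 0.13 in the wild-type and 0.86 ± 0.16 in the knock-out, a difference of -1.15 ± 0.21 (adjusted p = 0.000212), and for the steps from day 0 to day 2 and from day 2 to day 3 the difference was 0.15 and -0.21 (adjusted p = 0.807 and 0.64).

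Counts of Usp29 as a share of those of Peg3 were, in the wild-type, 2.94% ± 0.343, 2.98% ± 0.236, 2.92% ± 0.285 and 3.40% ± 0.128 at the 4 days (SD, n = 3). In the knock-out the share was 1.87% ± 0.236, 2.24% ± 0.222, 2.35% ± 0.149 and 3.11% ± 0.450. It was below the wild-type in every library of days 0, 2 and 3, and the genotypes overlapped at day 4; whether the share itself differs was not tested. Usp29 shares 2582 exonic bases with Zim3 on the other strand, which had 14 counts in all libraries together.

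Zim1, a zinc finger gene on the maternal side of the domain, lies at chr7:6671269-6696450 on the minus strand. Its wild-type libraries stood at 3.59, 3.51 and 3.92 CPM on day 0, 1.30, 1.74 and 1.5 CPM on day 2, 3.16, 2.40 and 2.32 CPM on day 3 and 10.6, 10.1 and 10.1 CPM on day 4. The knock-out held 4.12, 2.89 and 3.01 CPM, 1.96, 1.17 and 1.80 CPM, 1.31, 1.2 and 1.32 CPM, and 2.09, 2.19 and 3.11 CPM. The genotypes overlapped at days 0 and 2 and separated from day 3 on.

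The difference of Zim1 between genotypes was -0.14 ± 0.19 at day 0 (95% interval -0.53 to 0.25) and 0.12 ± 0.23 at day 2 (95% interval -0.35 to 0.60), neither past the test. It was -1.04 ± 0.22 at day 3 (adjusted p = 0.000444) and -2.06 ± 0.19 at day 4 (adjusted p = 1.6e-09). Of the 10 genes, Zim1 alone had a step from day 2 to day 3 that differed between genotypes, by -1.16 ± 0.32 (adjusted p = 0.0174), beside 4.33% of all tested genes called lower and 6.61% called higher in that comparison. This call was lost without replicate 1 of the wild-type at day 2 (adjusted p = 0.0525), of the wild-type at day 3 (adjusted p = 0.0633) or of the knock-out at day 2 (adjusted p = 0.07). From day 3 to day 4 both genotypes rose, by 1.96 ± 0.19 and 0.94 ± 0.22, and the steps differed by -1.02 ± 0.29 (adjusted p = 0.0117); the knock-out's own rise was no longer past the test without replicate 3 of day 4 (0.74, adjusted p = 0.059).

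The other genes of the domain had low counts, with Zfp264 at or near the floor of detection at days 3 and 4. Zfp264, a zinc finger gene, had 56, 37 and 30 wild-type and 59, 71 and 52 knock-out counts at day 0, and 13 and 47 counts over the 3 libraries at day 2, where the difference was 1.82 ± 0.48 (adjusted p = 0.00653). At days 3 and 4 Zfp264 was at 0 in all wild-type libraries and had 9 and 1 counts over the 3 libraries of the knock-out. Zim2 and Zim3 had 29 and 14 counts over all 24 libraries and were not tested, and Peg3os had no entry by that name in the table. Zim3 overlaps Usp29 and Zfp264 in the annotation, so its counts may not give its level.

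**Figure D2:**
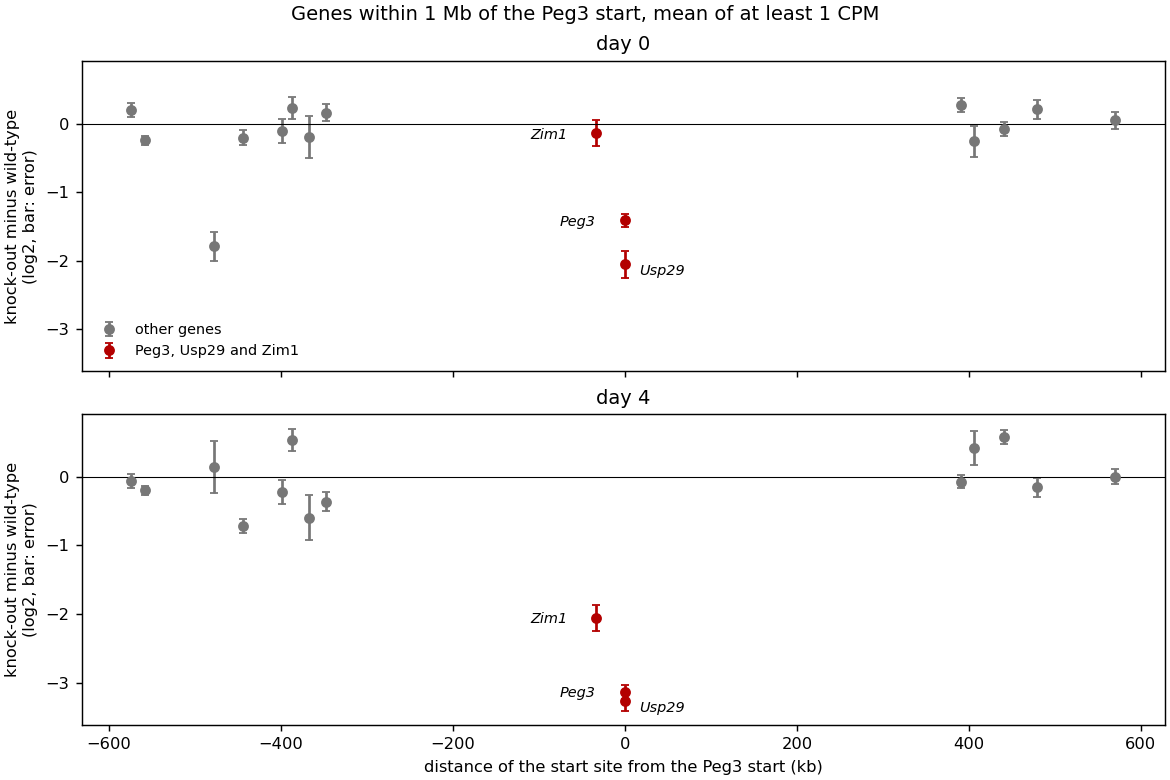
Difference between genotypes (log2, knock-out minus wild-type, bars give the standard error) against the distance of each gene's start from the Peg3 start in kb, at day 0 (top) and day 4 (bottom), for the 16 tested genes whose mean over all libraries reached 1 CPM. Peg3 and Usp29 (red) lie low at both days and Zim1 (red) only at day 4, and the low grey point at day 0 is Epp13.

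Mest encodes a protein with an alpha/beta hydrolase fold that is expressed from the paternal chromosome and is known from mesoderm, and it lies at chr6:30723547-30748465 on the plus strand. Wild-type libraries held 101, 99.1 and 107 CPM on day 0, 205, 207 and 209.6 CPM on day 2, 310.5, 235 and 201 CPM on day 3 and 663, 685 and 695 CPM on day 4. The knock-out held 68.4, 65.1 and 64.4 CPM, 129.7, 129.9 and 133 CPM, 121, 121 and 118 CPM, and 121, 113 and 155 CPM. The genotypes overlapped at no day, and from day 2 on the knock-out libraries lay between 113 and 155 CPM.

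The gap of Mest was -0.63 ± 0.12 at day 0 (adjusted p = 0.000544), -0.66 ± 0.11 at day 2, -1.05 ± 0.11 at day 3 and -2.39 ± 0.12 at day 4 (adjusted p = 2.62e-12). Its wild-type rose by 1.45 ± 0.11 in the last step and the knock-out by 0.12 ± 0.11, which did not pass the test (95% interval -0.12 to 0.35). The steps differed by -1.34 ± 0.16 (adjusted p = 4.09e-06). Mest shares 912 exonic bases with Copg2 on the other strand, and the sources used here do not give the use of strand in counting. At day 4 wild-type Copg2 was 93.1 ± 7.83 CPM and knock-out Copg2 68.8 ± 3.21 CPM (SD, n = 3), a difference of -0.44 ± 0.09 (adjusted p = 0.000151).

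**Figure D3:**
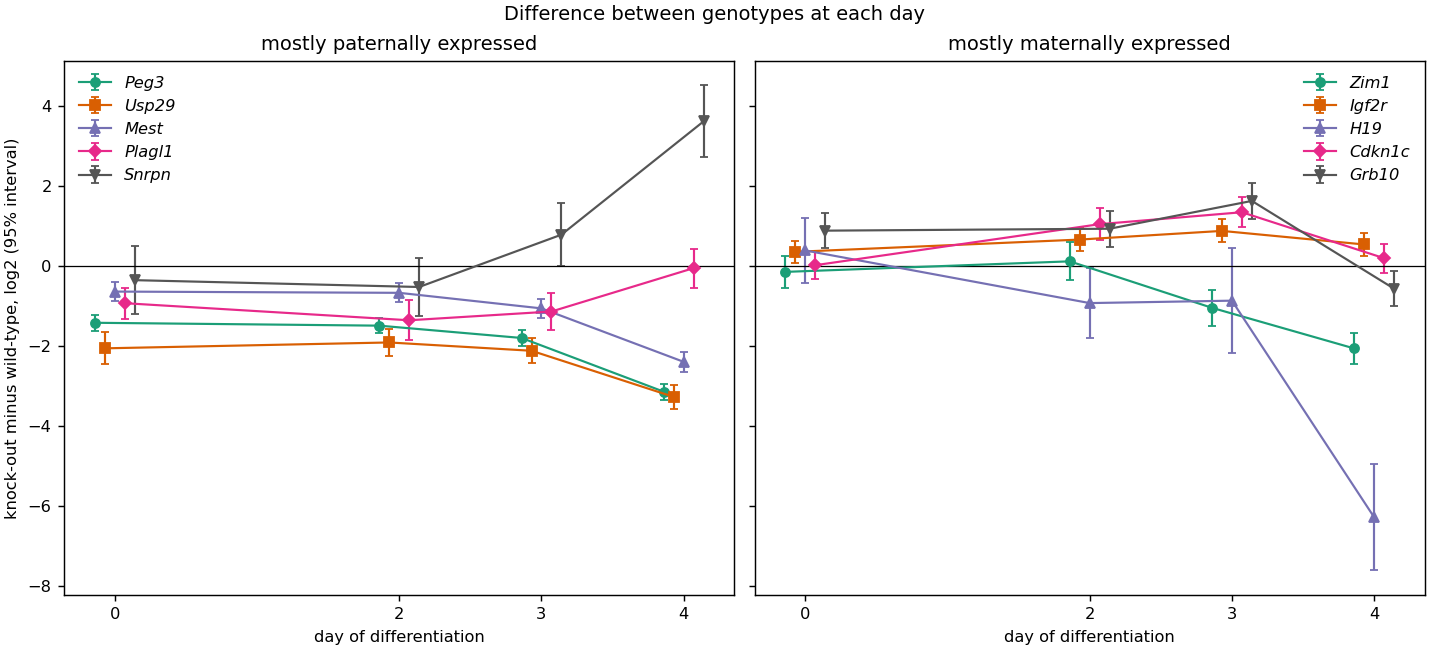
Difference between genotypes (log2, knock-out minus wild-type) with its 95% interval against the day, for the 5 mostly paternally expressed genes (left) and the 5 mostly maternally expressed genes (right). Peg3, Usp29 and Mest are below 0 at all 4 days and fall further at day 4, and H19 leaves the line at 0 by -6.28 at day 4.

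H19 is a long non-coding RNA that is expressed from the maternal chromosome and is abundant in embryonic mesoderm, endoderm and fibroblasts; it lies at chr7:142575529-142578143 on the minus strand. Wild-type H19 stood at 154, 144 and 136 CPM on day 0, fell to 50.04, 66.2 and 52.2 CPM at day 2 and to 7.55, 6.66 and 5.50 CPM at day 3, and reached 115, 95.9 and 54.4 CPM at day 4. The knock-out went from 343, 110.3 and 117 CPM through 43.2, 31.0 and 14.7 CPM and 4.40, 3.82 and 2.59 CPM to 0.908, 0.857 and 1.65 CPM, which are 20, 18 and 34 counts. Both genotypes were thus low at day 3, and at day 4 all 3 wild-type libraries were far above all 3 of the knock-out.

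The difference of H19 between genotypes at day 4 was -6.28 ± 0.63 (adjusted p = 2.03e-07). At days 0, 2 and 3 it was 0.40 ± 0.38, -0.92 ± 0.42 and -0.86 ± 0.62 (adjusted p = 0.516, 0.106 and 0.294), but it passed at day 3 with only the groups compared in the fit (-0.87, adjusted p = 0.00426) and at day 2 with the replicate number as a block (-1.03, adjusted p = 0.0274). The wild-type step from day 3 to day 4 was 3.75 ± 0.49 and that of the knock-out -1.67 ± 0.86 (adjusted p = 0.244), and they differed by -5.42 ± 0.96 (adjusted p = 0.000525). The highest of all libraries, replicate 1 of the knock-out at day 0, was also the highest in the sum of fibroblast markers (3643 CPM). These markers fell over the same days. The order of the other libraries of day 0 was not that of these sums. Wild-type replicate 1 had the highest H19 of its group and the lowest sum (1408 CPM). Knock-out replicate 3 had more H19 than replicate 2 but a lower sum (1387 and 2609 CPM). The part of feeder RNA in H19 before day 4 was not tested. At day 4 the fibroblast sums overlapped between the genotypes (63.5 to 70.3 and 66.5 to 80.9 CPM).

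Cdkn1c encodes an inhibitor of cyclin-dependent kinases that stops the cell cycle, is expressed from the maternal chromosome, and lies at chr7:143458339-143461050 on the minus strand. Wild-type libraries held 16.5, 13.3 and 11.1 CPM on day 0, 4.85, 4.16 and 3.94 CPM on day 2, 7.64, 5.64 and 4.20 CPM on day 3 and 11.8, 9.31 and 6.64 CPM on day 4. In the knock-out they were 13.7, 13.2 and 14.6 CPM, 9.09, 8.41 and 9.43 CPM, 14.4, 15.7 and 14.5 CPM, and 9.98, 11.5 and 10.4 CPM. The genotypes overlapped at days 0 and 4 and were apart at days 2 and 3, when the knock-out was the higher one.

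Cdkn1c was higher in the knock-out by 1.05 ± 0.20 at day 2 (adjusted p = 0.000198) and by 1.35 ± 0.18 at day 3 (adjusted p = 2.02e-06), with differences of 0.03 ± 0.17 at day 0 and 0.20 ± 0.18 at day 4. Its fall from day 0 to day 2 was -1.65 ± 0.19 in the wild-type and -0.62 ± 0.18 in the knock-out, and these steps differed by 1.03 ± 0.26 (adjusted p = 0.0157). It was the only one of the 10 genes called in that comparison, in which 3.07% of all tested genes were called lower and 4.27% higher. From day 3 to day 4 the wild-type rose by 0.66 ± 0.19 (adjusted p = 0.00516) and the knock-out's step was -0.49 ± 0.17 (adjusted p = 0.0688), which differ by -1.15 ± 0.25 (adjusted p = 0.00159). For Cdkn1c the step thus started from a knock-out that was higher at day 3 and ended with libraries that overlapped. The difference of the last steps of Cdkn1c passed the test in all 17 alternatives. The wild-type's own rise was no longer past it without its replicate 3 of day 3 (0.47, adjusted p = 0.0549) or its replicate 1 of day 4 (0.45, adjusted p = 0.0632), nor with only the groups compared in the fit (0.67, adjusted p = 0.0674).

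Grb10 encodes an adaptor protein that dampens signalling by the insulin and related receptors, is maternally expressed in most tissues and paternally in neurons, and lies at chr11:11930508-12038683 on the minus strand. The wild-type libraries held 115, 141 and 117 CPM on day 0, 113, 95.8 and 78.7 CPM on day 2, 94.95, 77.2 and 59.6 CPM on day 3 and 622, 443 and 292 CPM on day 4. The knock-out held 250.2, 230.0 and 211 CPM, 182, 176 and 193 CPM, 235, 229 and 256 CPM, and 299.9, 297 and 323 CPM. Up to day 3 every knock-out library was above every wild-type library, and at day 4 the wild-type ranged on both sides of the knock-out. At day 0 the libraries of both genotypes stood in the same order as the sums of fibroblast markers, whose part in the Grb10 level was not tested.

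Grb10 was higher in the knock-out by 0.89 ± 0.21, 0.94 ± 0.21 and 1.63 ± 0.21 at days 0, 2 and 3 (adjusted p = 0.00541, 0.00256 and 9.9e-06). In the last step the wild-type rose by 2.55 ± 0.22 and the knock-out by 0.35 ± 0.20, which did not pass the test, and the steps differed by -2.20 ± 0.29 (adjusted p = 3.5e-05). At day 4 the difference was -0.56 ± 0.20 (adjusted p = 0.0276). This last call was lost without replicate 1 of the wild-type at day 4 (-0.26, adjusted p = 0.26), without its replicate 2 (adjusted p = 0.0509), without replicates 1 or 2 of the knock-out (adjusted p = 0.0702 and 0.0752), with no filter on low counts (adjusted p = 0.0517) and with only the groups compared in the fit (adjusted p = 0.143). In each of these fits 5 of the 10 genes, not 6, were lower at day 4.

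In the wild-type at day 4, replicate 1 was the highest and replicate 3 the lowest for H19, Cdkn1c and Grb10, while Mest had the opposite order. The order of H19, Cdkn1c and Grb10 was also that of the sums of 13 mesoderm markers (404, 259 and 222 CPM), 7 trophoblast markers (53.4, 38.0 and 31.9 CPM), 12 extraembryonic endoderm markers (1197, 1029 and 969 CPM) and 11 definitive endoderm markers (4742, 4737 and 4515 CPM). The sum of 10 pluripotent markers had the opposite order, at 223, 331 and 358 CPM. For the knock-out of day 4 the mesoderm markers summed to between 7.28 and 12.1 CPM, with Hand1, Hand2, Mesp1 and Msgn1 at 0 in all 3 libraries. Foxf1 was at 0 in all 24 libraries of both genotypes, which, as for Sox2, may not be an absence of transcripts. The knock-out's sums at day 4 were 2.43 to 3.50 CPM for the trophoblast, 1047.5 to 1091 CPM for the pluripotent and 644 to 723 CPM for the extraembryonic endoderm markers. These sums do not count cells of a type. In the wild-type the mean sum of trophoblast markers was 65.5 CPM in the stem cells of day 0 and 41.1 CPM at day 4. That of extraembryonic endoderm markers was 1331 CPM at day 0 and 1065 CPM at day 4. The part of these cell types in the rise of the imprinted genes was not tested.

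Plagl1 encodes a zinc finger transcription factor that restrains growth, is paternally expressed and lies at chr10:13060504-13131694 on the plus strand. Its wild-type libraries held 25.3, 37.8 and 44.8 CPM on day 0, 7.87, 6.75 and 7.10 CPM on day 2, 8.44, 7.99 and 11.2 CPM on day 3 and 3.05, 4.66 and 5.23 CPM on day 4. The knock-out held 22.96, 18.6 and 15.4 CPM, 2.36, 3.06 and 3.09 CPM, 5.12, 3.54 and 3.95 CPM, and 4.72, 4.09 and 3.75 CPM. The genotypes were apart at days 0, 2 and 3, with the knock-out lower, and overlapped at day 4.

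The gap of Plagl1 was -0.92 ± 0.19, -1.35 ± 0.24 and -1.13 ± 0.22 at days 0, 2 and 3 (adjusted p = 0.00101, 0.000149 and 0.000226) and -0.05 ± 0.24 at day 4 (95% interval -0.53 to 0.44). It closed in the last step, in which the wild-type fell by 1.09 ± 0.22 (adjusted p = 0.000262) while the knock-out's step was -0.01 ± 0.23. The steps differed by 1.09 ± 0.32 (adjusted p = 0.0159), a call that was lost without replicate 3 of the wild-type at day 3 (0.92, adjusted p = 0.0508) or replicate 1 of the wild-type at day 4 (0.89, adjusted p = 0.0503).

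Igf2r encodes the receptor that takes up insulin-like growth factor 2 and lysosomal enzymes, is maternally expressed and lies at chr17:12682406-12769664 on the minus strand. Its wild-type libraries held 111, 177 and 163 CPM on day 0, 118, 93.1 and 119.5 CPM on day 2, 76.5, 86.0 and 81.7 CPM on day 3 and 104, 96.9 and 112 CPM on day 4. Those of the knock-out held 213, 194 and 173 CPM, 182, 185 and 158 CPM, 153, 153 and 145 CPM, and 162, 134 and 160.2 CPM. From day 2 on every knock-out library was above every wild-type library of its day. At day 0 the libraries overlapped, and in both genotypes they stood in the same order as the sums of fibroblast markers, whose part was not tested.

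The difference of Igf2r was 0.36 ± 0.13 at day 0 (adjusted p = 0.0638), and Igf2r was higher in the knock-out by 0.67 ± 0.14 at day 2, 0.88 ± 0.14 at day 3 and 0.55 ± 0.14 at day 4 (adjusted p = 0.000955, 4.07e-05 and 0.00216). The wild-type's rise of Igf2r from day 3 to day 4 was 0.36 ± 0.14 (adjusted p = 0.0394) and was lost in 7 of 11 alternatives. In the fit of all libraries no step of Igf2r differed between genotypes past the threshold, the last by -0.34 ± 0.19 (95% interval -0.74 to 0.06), and the test over all 4 days gave an adjusted p of 0.138. The other 9 genes passed that test of any change of the gap over the days, as did 45.3% of all tested genes. The day 0 difference of Igf2r passed the threshold without replicate 2 of the wild-type (0.49, adjusted p = 0.02) or replicate 3 of the knock-out (0.44, adjusted p = 0.0471), and the test over all days and the step from day 0 to day 2 did so without replicate 1 of the wild-type at day 0 (adjusted p = 0.00225, and 0.50, adjusted p = 0.0387). With only the groups compared in the fit, the last steps of Igf2r differed (-0.34, adjusted p = 0.0191).

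Snrpn encodes a protein of the small nuclear ribonucleoproteins of the spliceosome, is paternally expressed and lies at chr7:59982495-60140219 on the minus strand. Its values are uncertain, because the gene shares 589 exonic bases on the same strand with Gm38393, which took 80817 counts over all libraries, while Snurf, of the same transcript, was at 0. Snrpn itself had 12 counts in the wild-type libraries of day 4 together (1, 6 and 5) and 152 in those of the knock-out (58, 54 and 40), and the difference was 3.63 ± 0.44 (adjusted p = 1.42e-07). Gm38393 stood at 115 ± 21.5 CPM and 238 ± 28.1 CPM in the same groups (SD, n = 3), which is 1.04 ± 0.13 higher in the knock-out (adjusted p = 2.46e-06).

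At days 0, 2 and 3 neither Snrpn nor Gm38393 differed between genotypes past the threshold. In the last step Snrpn fell in the wild-type by 1.78 ± 0.52 and rose in the knock-out by 1.06 ± 0.32 (adjusted p = 0.00645 and 0.034), which differ by 2.84 ± 0.61 (adjusted p = 0.00118). The rise in the knock-out was lost without any single library of its days 3 and 4 except replicate 3 of day 4 (adjusted p between 0.0521 and 0.148).

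**Figure D4:**
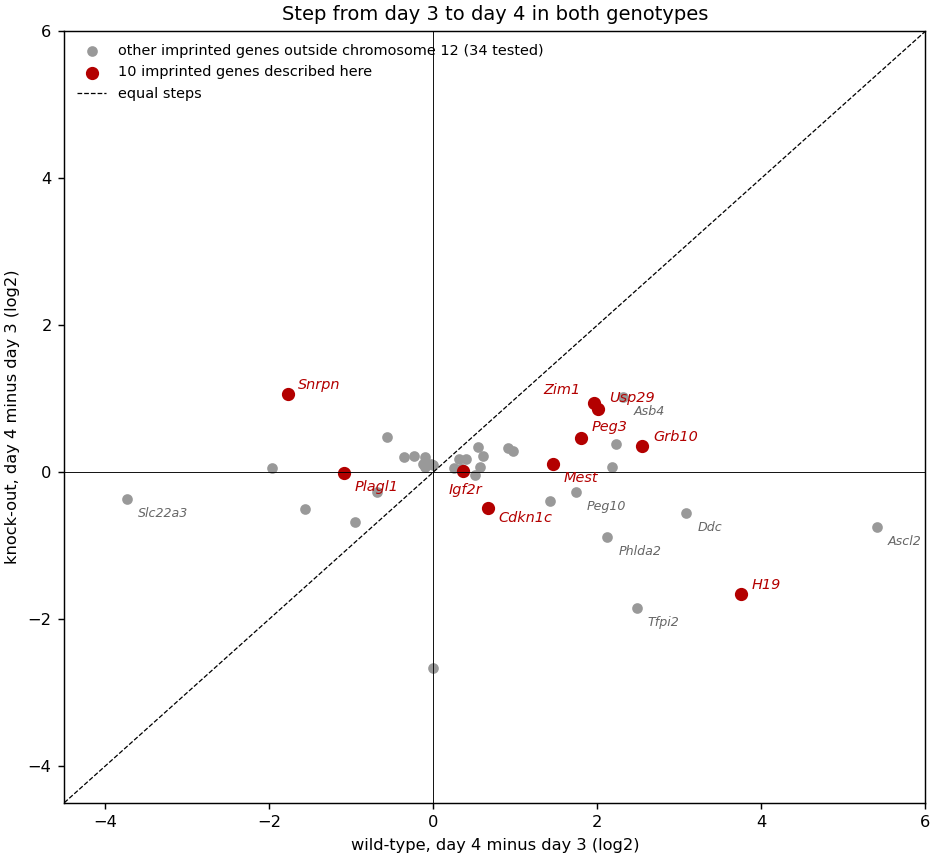
Log2 step from day 3 to day 4 in the knock-out against that in the wild-type, for the 10 genes (red) and 34 other tested imprinted genes outside chromosome 12 (grey); the dashed line marks equal steps. The 8 red points with a wild-type rise lie below the line, H19 furthest, and Plagl1 and Snrpn lie above it.

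The steps of the genotypes differed for 1 of the 10 genes from day 0 to day 2, for 1 from day 2 to day 3 and for 9 from day 3 to day 4. From day 3 to day 4 all 10 genes passed the test in the wild-type, 8 rising and 2 falling (22.4% and 23.1% of all tested genes, and 6 to 8 rising when 1 library was left out), and 4 rose and 0 fell in the knock-out (5.76% and 5.83%) by edgeR, with 3 rising when any library of these days was left out. At an unadjusted p under 0.05 edgeR had 1 gene with a negative step there, Cdkn1c, and DESeq2 called 1, H19. Of the 9 steps that differed, 7 were lower and 2 higher in the knock-out, beside 11.2% and 12.6% of all tested genes. The median step of the 10 genes was 1.63 in the wild-type and 0.23 in the knock-out. From day 0 to day 2 the wild-type had 4 of the 10 genes rising and 5 falling (32% and 31.8% of all tested genes), the knock-out 3 and 4 (29.5% and 30.6%). From day 2 to day 3 there were 3 and 3 in the wild-type (21.4% and 21.1%) and 1 and 1 in the knock-out (14.7% and 14.4%).

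Per kilobase of annotated exons, Mest was the highest of the 10 genes in the wild-type at day 4, at 173 ± 4.20 CPM per kb (SD, n = 3), followed by Peg3 at 113 ± 4.00, Grb10 at 49.8 ± 18.2 and H19 at 36.0 ± 12.7 CPM per kb, of which the last pair overlapped in their SD. In the knock-out at day 4, Grb10 (33.7 ± 1.60) and Mest (32.9 ± 5.66) came first and did not differ beyond their SD. Peg3 stood at 12.8 ± 0.525 and H19 at 0.463 ± 0.181 CPM per kb there. The length of a gene joins the exons of all its annotated isoforms, 18.1 kb for Usp29, which stood at 2.82 ± 0.1003 and 0.293 ± 0.0458 CPM per kb in the 2 groups.

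Across the 24 libraries, the log2 level of Usp29 was correlated with that of Peg3 at a Pearson r of 0.993 and that of Mest at 0.975. The other members lay between -0.759 (Igf2r) and 0.585 (Zim1), with H19 at 0.0486. Among 8979 genes whose mean reached 10 CPM, the 5 most like Peg3 outside the members were Celsr1 (0.979), Pkd1l1 (0.967), Cab39l (0.964), Rhbdd2 (0.962) and Pigv (0.961). Celsr1, a cadherin of planar cell polarity, went from a wild-type mean of 19.7 CPM at day 0 to 93.6 CPM at day 4, and from 11.7 to 19.3 CPM without Setd3. The lowest values belonged to Ckap2 (-0.975), Rbm27 (-0.973) and Bub1b (-0.972). The libraries share genotype and day, so these correlations describe the 8 groups and are not a test.

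Around Peg3, 19 other tested genes lie at least in part within 1 Mb of its start, and their median difference between genotypes was -0.11, 0.13, 0.06 and -0.07 at days 0, 2, 3 and 4. Of them 2, 3, 5 and 4 were lower and 0, 3, 3 and 3 higher in the knock-out at these days, beside 10.5%, 15.7%, 20.5% and 27.6% of all tested genes lower and 10.6%, 16.2%, 20.8% and 26.3% higher. The 2 lower at day 0, named after their values were seen, were Zfp444 at -0.24 and Epp13 at -1.79 (adjusted p = 0.0116 and 1.03e-06). The median over the 1302 tested genes of chromosome 7 stayed between -0.02 and 0.01, while chromosome 8, which holds none of the 10 genes, had medians of 0.24, 0.21, 0.21 and 0.20 over 845 tested genes. Around Mest, 17 tested genes had medians of -0.14, -0.07, -0.03 and -0.12. Of these 17, 5, 2, 6 and 7 were lower and 2, 1, 4 and 1 higher in the knock-out at days 0, 2, 3 and 4, to be read beside the percentages of all tested genes above. Around Grb10, 7 tested genes had medians of -0.10, -0.32, -0.15 and -1.03, with 5 lower and 0 higher at day 4 (27.6% and 26.3% of all tested genes), beside medians of -0.03, -0.05, -0.09 and -0.13 over the 1316 tested genes of chromosome 11. Around Cdkn1c, 23 had medians of 0.04, -0.15, 0.03 and -0.38, with 8 lower and 2 higher at day 4. Around Snrpn, 4 of 7 were higher at day 4, with a median of 0.91, to be read beside the same percentages.

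The wider list of 54 other imprinted genes outside chromosome 12 had 34 tested members. Some, such as Zfp264 near Peg3 and Ddc near Grb10, were also among the neighbours counted above, so the counts share genes. None of the 34 had a gap throughout in either direction, beside 2.82% of all tested genes lower and 3.73% higher throughout. At day 0, 3 were lower and 2 higher in the knock-out, at day 2 5 and 8, at day 3 6 and 11, and at day 4 15 and 9, to be read beside the percentages of all tested genes given above. From day 3 to day 4, 17 of the 34 rose and 5 fell in the wild-type (22.4% and 23.1% of all tested genes). In the knock-out 3 rose and 2 fell (5.76% and 5.83%). A smaller rise was found for 13 of the 17, among them Ascl2, Ddc, Asb4 and Phlda2. Of all tested genes that rose in the wild-type, 44.9% had a smaller rise.

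Ascl2, a basic helix-loop-helix factor of trophoblast that is also in the trophoblast marker list, had 10 counts in the wild-type libraries of day 3 together and stood at 8.75, 7.40 and 4.91 CPM at day 4, against 0.454, 0.619 and 0.584 CPM in the knock-out of day 4; before that, at day 3, it was higher in the knock-out by 2.49 ± 0.48 (adjusted p = 0.000179), and its last steps differed by -6.15 ± 0.56 (adjusted p = 2.43e-08). Asb4, a subunit of a ubiquitin ligase, stood at 57.2, 39.2 and 31.8 CPM at day 4, with 2.45, 2.81 and 3.06 CPM for the knock-out, a difference of -3.94 ± 0.27 (adjusted p = 5.56e-11). Ddc, the enzyme that makes dopamine and serotonin from their precursors, was 14.9, 9.83 and 6.46 CPM against 1.13, 0.904 and 0.389 CPM (-3.66 ± 0.32, adjusted p = 1.03e-09). In the other direction, Slc22a3, a cation transporter next to Igf2r, had 5 counts in the wild-type libraries of day 4 together and stood at 3.81, 3.90 and 3.11 CPM in the knock-out, a difference of 5.42 ± 0.52 (adjusted p = 7.91e-09). Peg12, near Snrpn on chromosome 7, was lower in the knock-out by 2.97 on the log2 scale at day 2, 2.72 at day 3 and 3.42 at day 4.

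Of the 54 names, 12 were at 0 in all 24 libraries: Nap1l5, Snurf, Ndn, Magel2, Mkrn3, Igf2, Tssc4, Kcnq1ot1, Zrsr1, Mcts2, Nnat and Peg13. Each of these 12 overlaps another gene in the annotation, so a value of 0 may not be an absence of transcripts. A further 7 had counts too low to be tested and 1 was not in the table.

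A list of 14 factors mixed those that keep imprints or bind the Peg3 domain with others that act on DNA methylation (Dnmt3a, Dnmt3b, Dnmt3l, Tet1 and Tet2). Of the 14, 3 were lower and 2 higher in the knock-out at day 0, 1 and 10 at day 2, 3 and 10 at day 3, and 3 and 10 at day 4, read against the percentages of all tested genes given above. Yy1, a zinc finger factor with binding sites in the Peg3 domain, was lower at all 4 days, by 0.82 at day 0 and 0.68 at day 4 on the log2 scale (adjusted p = 7.8e-13 and 5.92e-12). Yy1 stood between 179.9 and 213 CPM in the 12 wild-type libraries and between 94.8 and 116 CPM in the 12 knock-out libraries, with no overlap, and its gap narrowed from day 3 to day 4 (0.19 ± 0.06, adjusted p = 0.033), when that of Peg3 widened. Zfp57, a zinc finger protein that protects imprints, was lower by 0.34 at day 0, higher by 0.32 at day 2 and lower by 0.90 and 1.16 at days 3 and 4. Dnmt3a, a DNA methyltransferase, was higher by 1.32 ± 0.12 at day 4. Whether the level of any of these factors bears on the imprinted genes was not tested.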

How the data were processed

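Polyadenylated RNA of 24 libraries was sequenced, 3 for each of 8 groups of genotype and day. The authors deposited raw counts per gene, with no normalization. Trimmomatic, HISAT2 and the build GRCm38.p6 are named, per the submitters' processing notes; the sources used here do not give their versions, the counting tool or its use of strand. Reads counted for overlapping genes can therefore not be told apart where strand matters.

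Groups were taken from the labels. The counts, 18531390 to 24244958 per library, were scaled with TMM factors and tested with edgeR 4.0.16 (R 4.3.3; quasi-likelihood, two-sided) in 1 model of 24 libraries. After the filter on low counts (filterByExpr by group) 17144 genes were tested. Adjusted p-values are Benjamini-Hochberg over all tested genes in each of 14 comparisons, with a threshold of 0.05. The error after ± of a log2 difference is its size divided by the square root of F, and intervals are at 95%. CPM use the TMM-scaled library sizes. The model was run on simulated counts with a common spread and, except for some genes changed in the knock-out of day 4, the same mean in all groups. That setting is simpler than the data, so it does not show how the model treats genes with a larger spread. Correlations with Peg3 use log2 CPM with a prior count of 2.

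Coordinates and exonic lengths are from GENCODE M21 (GRCm38) and upstream windows from RefSeq (GRCm38.p6). Replicate numbers were not taken to pair the libraries, since not every same-numbered pair had deviations correlated over 0.1. This strict rule does not show that the libraries were unpaired. The 10 genes and all lists were chosen with earlier results of these data known, and nothing here is independent support for a pattern seen before. Besides the 10 genes, those with the 3 lowest adjusted p in a direction of a comparison were named from the lists of other imprinted genes and of imprint and DNA methylation factors, and the 5 genes most and 3 least correlated with Peg3. Alternatives were DESeq2's size factors, DESeq2 1.42.0, no filter, only the groups compared, a replicate block and leaving out each library.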

Additional observations from a re-analysis of the deposited data

Results flagged for a closer look

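The steps of the genotypes differed by the test of the difference itself for 11 pairs of gene and step. From day 0 to day 2 this was Cdkn1c, with a knock-out step higher by 1.03. From day 2 to day 3 it was Zim1, with a difference of -1.16. From day 3 to day 4 the knock-out step was lower for Peg3 (-1.34), Usp29 (-1.15), Zim1 (-1.02), Mest (-1.34), H19 (-5.42), Cdkn1c (-1.15) and Grb10 (-2.20), and higher for Plagl1 (1.09) and Snrpn (2.84). Groups of 3 libraries are too small for a test of single outlying libraries.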

How the results depend on the processing

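For the 10 genes in 14 comparisons, 1819 of 1889 alternative values kept their side of the threshold, 45 lost and 25 gained the call. No called value reversed, and 27 values changed sign past the threshold in neither fit. The gap throughout of Peg3, Usp29 and Mest was found in all 29 alternatives, and Igf2r (higher) was added in 3. The 7 genes with a smaller rise were the same in 26, and Cdkn1c was lost in 3, in 1 of which (only the groups compared) Igf2r joined. Without 1 library, only comparisons of its own group were tested again, and the others kept their values from all libraries. Each such fit thus tested the gap again at only 1 of the 4 days. Only 17 of the 29 alternatives tested the difference of the last steps again, so in the others the smaller rise could not change. The last step's difference ranged from -1.44 to -1.26 for Peg3, -1.32 to -1.01 for Usp29, -1.53 to -1.20 for Mest and -2.44 to -1.90 for Grb10.

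With only the groups compared in the fit, genes called at day 0 were 1587 (3611 otherwise) and in the knock-out from day 3 to day 4 3698 (1986). The 10 genes then had 6 lower at day 3 (5 otherwise, H19 joining) and 1 with a higher step from day 2 to day 3 (0). In the knock-out 3 were lower and 3 higher from day 2 to day 3 (1 and 1), and 2 were lower from day 3 to day 4 (0). From day 3 to day 4 the wild-type had 7 higher (8 otherwise, Cdkn1c being lost). It had 1 lower (2 otherwise), where Snrpn had no value in that fit rather than a lost call. DESeq2's test gave 2 higher at day 0 (1) and 1 lower in the knock-out from day 3 to day 4 (0).

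Leaving out single libraries, all genes whose steps differed from day 0 to day 2 ranged from 731 to 1645 (1259) and those called in the knock-out from day 3 to day 4 from 1062 to 1504. Of the 10 genes, 1 to 2 were higher at day 0, 2 to 5 higher and 1 to 3 lower in the wild-type from day 2 to day 3, and 1 to 2, 0 to 2 and 1 to 2 had a higher, lower and higher step difference over the 3 steps in turn.

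Same-numbered libraries of a day had correlations of their deviations between -0.150 and 0.0425 (12 pairs), and the 84 such pairs over all groups between -0.150 and 0.165, with 3 over 0.1 (2 of 168 pairs of other numbers). They reached 0.165, 0.0110 and 0.108 between days 3 and 4 of the wild-type, where Peg3, H19, Cdkn1c and Grb10 had their highest library in replicate 1 and their lowest in replicate 3 at both days. As a hint from the data, 10 of 12 libraries of days 3 and 4 correlated best with the same number of their genotype's other day, and 9 of 24 with that of the other genotype. Since not every pair was over 0.1, the numbers were not taken to pair the libraries, although so strict a rule cannot show that they were unpaired. With the replicate as a block, 7 of the 10 genes had a lower and 2 a higher last step (4148 genes in all, 4079 without the block), 5 were lower at day 2 (H19 joining at -1.03), 7 rose in the wild-type in the last step, without Igf2r, and 1 was lower in the knock-out's last step (Cdkn1c). Low counts limit Snrpn, with at most 58 per library, and H19 in the knock-out at day 4, with 18 to 34.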
